A study of Mus musculus with 6 samples.

Results

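The decision of a cell to leave G1 and replicate its DNA rests on D-type and E-type cyclins, the kinases they bind, the inhibitors of these kinases and the retinoblastoma protein. The genes of 10 such proteins were followed in mouse endothelial cells with and without vascular endothelial cadherin (VEC): the D-type cyclins *Ccnd1*, *Ccnd2* and *Ccnd3*, the kinases *Cdk4* and *Cdk6*, the E-type cyclins *Ccne1* and *Ccne2*, the inhibitors *Cdkn1a* (p21) and *Cdkn1b* (p27), and *Rb1*. They were selected on their normalized counts in the same comparison of the cell types, matched by symbol, and are 10 of 24080 genes in the deposited table. RNA was sequenced in 3 libraries labelled VEC-positive and 3 labelled VEC-null. VEC-null cells are an endothelial line from mouse embryonic stem cells with a homozygous null mutation of the *VEC* gene. VEC-positive cells are that same line after retroviral transfer of wild-type *VEC*, so they carry the null mutation too. The libraries are called biological replicates of a line and its reconstituted derivative, and VEC cannot be told apart from anything else that sets the lines apart.

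*Cdh5*, which encodes VEC, ran against the labels. It was at 794, 739 and 749.7 normalized counts in the libraries labelled VEC-positive 1, 2 and 3, against 1334, 1439 and 1689 in those labelled VEC-null 1, 2 and 3 (log2 fold change -0.96, adjusted p = 0.000182). *Cldn5*, which encodes the tight junction protein claudin-5 and is known to be raised by VEC in endothelial cells, ran the way of the labels, at 429, 512 and 434 in VEC-positive and 9.18, 5.51 and 4.43 in VEC-null libraries (log2 fold change 6.01, adjusted p = 2.14e-06). A count per gene does not show whether *Cdh5* reads come from the transferred cDNA or from the null allele, and every direction here is given by label. A normalized count is a read count divided by the size factor of its library. Libraries held 6036155 to 14136376 reads. Transcripts of the mitochondrial genome took 18.0% to 24.2% of the reads in VEC-positive and 9.62% to 14.9% in VEC-null libraries. VEC-null 3 stood apart from the other VEC-null libraries, since its chi-square over genes, divided by their number, reached 48.6 and 50.5 when paired with them. The VEC-null 1 and 2 pair gave 6.57 and the VEC-positive pairs 11.8 to 18.4. The 10 endothelial markers summed to 65311 to 67308 normalized counts in VEC-positive and 45928 to 48299 in VEC-null libraries. *Cdh5* and *Cldn5* are among them and ran in opposite directions, and the sum does not show which way each marker ran. Of the markers of pluripotent and epithelial cells that were matched, 2 and 4, none exceeded 20 normalized counts in any library. Of 3 matched blood markers, 2 passed the filter on low values and *Ptprc* was near 0. The sum of the 3 was 112 to 166 in VEC-positive and 119.7 to 418 in VEC-null libraries, so these markers as a set were not near 0. The 7 matched mural and fibroblast markers summed to 245 to 288 in VEC-positive and 86.9 to 203.5 in VEC-null libraries. Among them *Pdgfrb* was at 95.6, 118 and 102 in VEC-positive and 1.53, 0 and 1.77 in VEC-null libraries (log2 fold change 5.79, adjusted p = 4.49e-05). Without *Pdgfrb* the sums of the others overlapped between the groups. The others are given in the sum only, which does not show which way each of them ran. The part of such cells in the results was not tested.

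D-type cyclins are made in response to growth factors and adhesion, bind CDK4 or CDK6 and start the phosphorylation of RB. E-type cyclins then activate CDK2, RB lets go of E2F factors, and E2F factors switch on the genes of S phase. p21 and p27, of the Cip/Kip family, block cyclin E-CDK2 and also help cyclin D to assemble with its kinase. p21 is a classical target of p53. Endothelial cells that reach confluence leave the cycle, and contact inhibition of growth is a known property of cells with VEC at their junctions.

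Promoter windows of 250 bases before the RefSeq start (GRCm38.p6, the mm10 build) were found for 6 of the 10 genes, 8 windows in all, with none for *Ccnd1*, *Ccnd2*, *Ccne2* and *Rb1*. Those of the 2 kinases are shown because their counts differed between the cell types in opposite directions, and that of *Cdkn1a* because it holds the known p53 element. Capitals mark the E-box CACGTG in the windows of the kinases and the p53 element, searched as ACATGTC, 2 further bases and GACATGT, in that of *Cdkn1a*. All 3 windows lie on the plus strand.
Cdk4, chr10:127063285-127063534: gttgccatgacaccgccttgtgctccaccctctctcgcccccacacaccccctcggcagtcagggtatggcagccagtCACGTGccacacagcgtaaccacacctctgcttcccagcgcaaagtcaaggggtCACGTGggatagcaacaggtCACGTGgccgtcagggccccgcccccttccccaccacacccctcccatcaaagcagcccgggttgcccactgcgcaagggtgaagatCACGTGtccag
Cdk6, chr5:3343643-3343892: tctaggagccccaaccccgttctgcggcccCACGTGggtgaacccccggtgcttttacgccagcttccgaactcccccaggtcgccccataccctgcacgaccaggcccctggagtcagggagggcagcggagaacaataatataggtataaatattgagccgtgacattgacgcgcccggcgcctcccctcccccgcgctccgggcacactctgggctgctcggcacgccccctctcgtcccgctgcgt
Cdkn1a, chr17:29090729-29090978: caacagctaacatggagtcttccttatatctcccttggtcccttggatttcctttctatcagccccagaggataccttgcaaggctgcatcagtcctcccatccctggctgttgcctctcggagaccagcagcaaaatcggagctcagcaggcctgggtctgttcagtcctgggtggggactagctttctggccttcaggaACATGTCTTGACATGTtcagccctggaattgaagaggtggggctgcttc
The *Cdk4* window holds CACGTG 4 times, starting 172, 118, 98 and 11 bases before the start, and the *Cdk6* window once, 220 bases before it. CACGTG, which reads the same on both strands, is in 6.02% of 32851 such windows, and 7 of them hold it at least 4 times. The p53 element, in the window of the more distal of the *Cdkn1a* starts, is in 1 of the 32851 windows. The string searched was the known *Cdkn1a* element with 2 bases left free, so its match here was fixed in advance. That count is therefore not a share of windows with p53 sites in general. Both strands were also searched for the FoxO site GTAAACA, found in 3.17% of windows and among these genes in *Ccnd3*, and for the Tcf site CTTTGAT, found in 3.21% and here in *Cdk4*. Consensus E2F sites were found in 1.86% of windows and in none of these 8. No matches overlapped, and a match is a description of letters only.

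All 3 D-type cyclins were at higher counts in the libraries labelled VEC-positive. *Ccnd2* (ENSMUSG00000000184, chromosome 6, 127125162 to 127152193) had the most reads of the 10 genes, 17836 over the 6 libraries. It was at 4488, 4357 and 4469 normalized counts in VEC-positive 1, 2 and 3 and at 1403, 1279.7 and 1272 in VEC-null 1, 2 and 3. The lowest VEC-positive value was 3.11 times the highest VEC-null value, and the mean was 3.37-fold higher. *Ccnd1* (ENSMUSG00000070348, chromosome 7, 144929931 to 144939925), the D-type cyclin best known as a target of growth factor and β-catenin signalling, was at 1288, 1215 and 1279 in VEC-positive and 469.7, 465 and 541 in VEC-null libraries, 2.56-fold higher. *Ccnd3* (ENSMUSG00000034165, chromosome 17, 47505051 to 47599691) was at 399, 435 and 414 in VEC-positive and 280.0, 247 and 264 in VEC-null libraries, 1.58-fold higher. The groups did not overlap for any of the 3 genes. All 3 genes share exonic sequence with opposite-strand genes. *Ccnd1* does so with *LTO1* (182 to 195 in VEC-positive and 144 to 181 in VEC-null libraries). *Ccnd3* does so with *Bysl* (257 to 313 in VEC-positive and 185 to 248 in VEC-null libraries). *Ccnd2* does so with *Gm43126* (6.46 to 16.3 in VEC-positive and 0.788 to 7.65 in VEC-null libraries) and with *9330179D12Rik*, which has no counts here.
The increments were unequal. The ratio of *Ccnd2* to *Ccnd3*, which no scaling of the libraries can move, was 10.7 ± 0.630 in VEC-positive and 5.00 ± 0.180 in VEC-null libraries (SD, n = 3 each). The ratio of *Ccnd1* to *Ccnd3* was 3.04 ± 0.224 in VEC-positive and 1.87 ± 0.185 in VEC-null libraries (SD, n = 3 each), and that of *Ccnd2* to *Ccnd1* was 3.52 ± 0.0563 and 2.70 ± 0.321 (SD, n = 3 each). Groups did not overlap for any of these ratios. In bulk libraries, more cells with a transcript and more transcript per cell cannot be told apart.

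**Figure D1:**
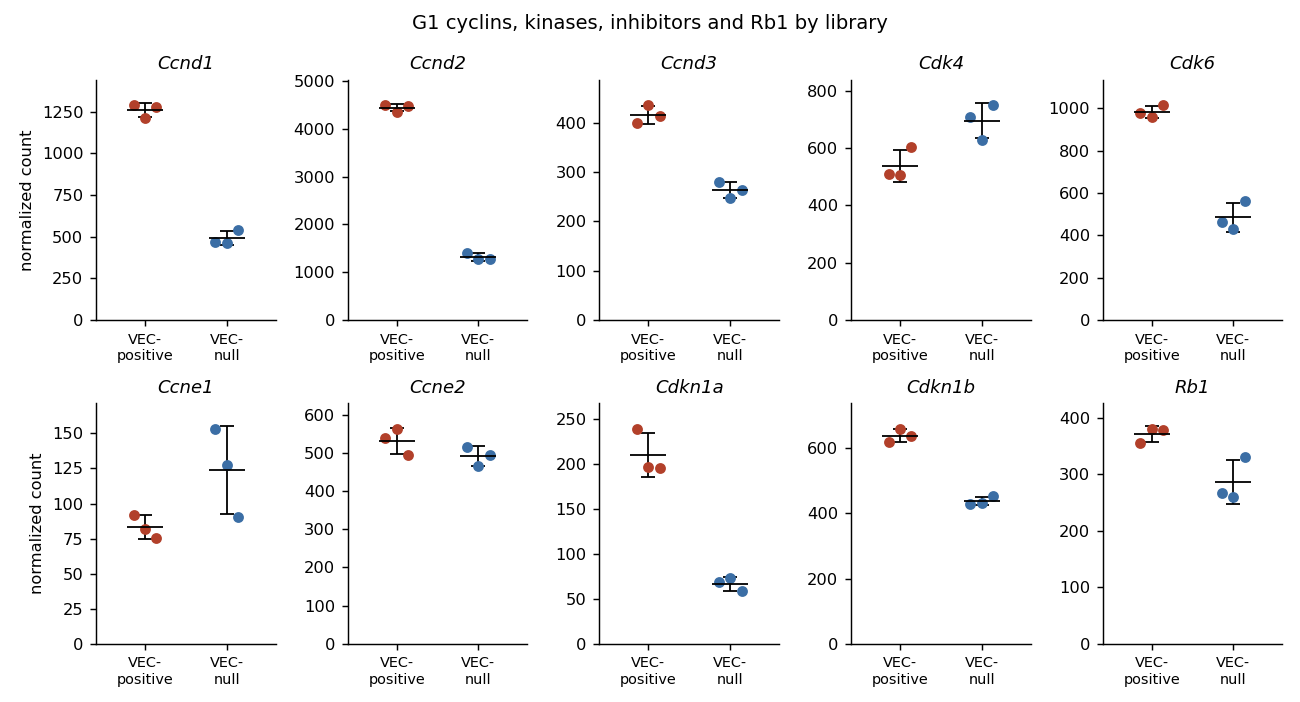
Normalized counts (vertical axes, each from 0) of the 10 genes in the 3 libraries labelled VEC-positive (red, left) and the 3 labelled VEC-null (blue, right), with points in the order of replicate number and bars for the mean and SD. The groups are apart for 8 genes, with *Cdk4* the 1 gene of these that is lower in VEC-positive, and overlap for *Ccne1* and *Ccne2*.

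The kinases that D-type cyclins bind ran in opposite directions. *Cdk6* (ENSMUSG00000040274, chromosome 5, 3341485 to 3531008) was at 975, 959 and 1013 normalized counts in VEC-positive 1, 2 and 3 and at 461, 429 and 563 in VEC-null 1, 2 and 3, 2.03-fold higher. *Cdk4* (ENSMUSG00000006728, chromosome 10, 127063534 to 127067920), its close relative, was at 509, 506 and 604 in VEC-positive and 708, 628 and 749 in VEC-null libraries, with a mean 1.29 times higher in VEC-null. For *Cdk4* the highest VEC-positive value, in replicate 3, lay close below the lowest VEC-null value, in replicate 2. Within each library the ratio of *Cdk6* to *Cdk4* was 1.92, 1.90 and 1.68 in VEC-positive 1, 2 and 3 and 0.650, 0.683 and 0.751 in VEC-null 1, 2 and 3, so that *Cdk6* had the larger count in each VEC-positive library and *Cdk4* in each VEC-null library. Transcripts of unequal length give unequal counts, so this ratio compares libraries and not molecules. *Cdk4* shares exonic sequence with *Tspan31* on the opposite strand, and *Tspan31* was at 394 to 479 in VEC-positive and 303 to 327 in VEC-null libraries. The kit keeps strand, but no source used here says whether the counting used it.

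The E-type cyclins, which act after the D-type cyclins, overlapped between the cell types. *Ccne1* (ENSMUSG00000002068, chromosome 7, 38097984 to 38107534) had the fewest reads of the 10 genes, 620 over the 6 libraries, and was at 92.1, 81.8 and 75.05 normalized counts in VEC-positive and 153, 128 and 90.4 in VEC-null libraries, where VEC-null 3 lay within the VEC-positive range. *Ccne2* (ENSMUSG00000028212, chromosome 4, 11191351 to 11204779) was at 539, 562 and 495 in VEC-positive and 516, 465 and 495 in VEC-null libraries. Their log2 fold changes were -0.54 (standard error 0.21) and 0.11 (standard error 0.087). Without VEC-null 3, the log2 fold change of *Ccne1* was the farthest from 0 of the fits that left out 1 library, at -0.75. *Ccne2* overlaps exons of *Ints8* on the opposite strand, at 273 to 333 in VEC-positive and 411 to 554 in VEC-null libraries.

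Like the D-type cyclins, the Cip/Kip inhibitors *Cdkn1a* and *Cdkn1b* had higher counts in VEC-positive libraries. *Cdkn1a* (ENSMUSG00000023067, chromosome 17, 29090976 to 29100727) was at 239, 197 and 196 normalized counts in VEC-positive 1, 2 and 3 and at 68.9, 73.2 and 58.5 in VEC-null 1, 2 and 3, 3.15-fold higher. The lowest VEC-positive value was 2.68 times the highest VEC-null value. *Cdkn1b* (ENSMUSG00000003031, chromosome 6, 134920401 to 134925513), which FoxO factors are known to activate, was at 618, 659 and 638 in VEC-positive and 430.0, 431 and 454 in VEC-null libraries, 1.46-fold higher, with the smallest spread in VEC-null of the 10 genes (coefficient of variation 3.11%). The ratio of *Cdkn1b* to *Cdkn1a* was 3.06 ± 0.415 in VEC-positive and 6.63 ± 0.995 in VEC-null libraries (SD, n = 3 each). *Cdkn1a* and *Ccnd2* differed in near proportion, and their ratio overlapped between the groups, at 0.0474 ± 0.00510 in VEC-positive and 0.0508 ± 0.00581 in VEC-null libraries (SD, n = 3 each). *Rb1* (ENSMUSG00000022105, chromosome 14, 73183673 to 73325822), the pocket protein that cyclin D kinases phosphorylate, was at 355, 379.9 and 378 in VEC-positive and 268, 259 and 331 in VEC-null libraries, 1.30-fold higher. The VEC-null 3 value of *Rb1* was 1.26 times the mean of the other VEC-null libraries. *Lpar6*, which lies on the opposite strand within *Rb1* and shares exonic sequence with it, was at 1013 to 1142 in VEC-positive and 303 to 406 in VEC-null libraries. *Rcbtb2*, also on the opposite strand, was at 892 to 966 in VEC-positive and 415 to 531 in VEC-null libraries. The part of these genes in the *Rb1* count was not tested.

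On the log2 scale, VEC-positive exceeded VEC-null by 1.75 (standard error 0.070) for *Ccnd2*, 1.64 (0.15) for *Cdkn1a*, 1.36 (0.085) for *Ccnd1*, 1.03 (0.11) for *Cdk6*, 0.66 (0.092) for *Ccnd3*, 0.54 (0.076) for *Cdkn1b* and 0.38 (0.11) for *Rb1*, and the difference was -0.37 (0.11) for *Cdk4*. All 10 genes passed the filter on low values. In the limma fit over 14032 genes, 7 of the 10 were called higher and 1 lower at an adjusted p of 0.05 where 37.3% of all tested genes were called, 20.9% as higher and 16.4% as lower. The higher call of *Rb1* was lost in 5 of the 6 fits that left out 1 library (all but that without VEC-null 3), with the replicate block, by DESeq2 and with equal totals. The lower call of *Cdk4* was lost in 3 of those 6 fits, without VEC-positive 1, VEC-positive 2 or VEC-null 1. *Ccne1* was called lower without VEC-null 3 and with equal totals. Groups did not overlap for 8 of the 10 and for 50% of all tested genes, with VEC-positive the higher for 7 of the 10 and for 27.2% of all tested genes. The 10 genes were chosen with this comparison known, so these counts are a description and nothing is read from them. The calls over all genes were 2927 higher and 2304 lower, and 1553 and 5000 with libraries scaled to equal totals. Without VEC-positive 1 or 2, 1927 and 1919 genes were called higher.
With libraries scaled to equal totals the median tested gene had a log2 fold change of -0.32, against -0.01 with the deposited size factors, and leaving the mitochondrial genes out of the totals gave -0.16. The 10 genes moved with it, and the distance of each from the median gene differed by at most 0.0015 between the 3 scalings. Scaling a whole library shifts all its genes almost alike, so the distance was bound to stay nearly the same. That distance was 1.76 for *Ccnd2*, 1.65 for *Cdkn1a*, 0.39 for *Rb1*, 0.13 for *Ccne2* and -0.36 for *Cdk4* with the deposited size factors. With equal totals the log2 fold change itself was 1.44 for *Ccnd2*, 1.33 for *Cdkn1a*, 0.23 for *Cdkn1b*, 0.07 for *Rb1* and -0.68 for *Cdk4*, and that of *Ccne2* changed sign to -0.20.

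**Figure D2:**
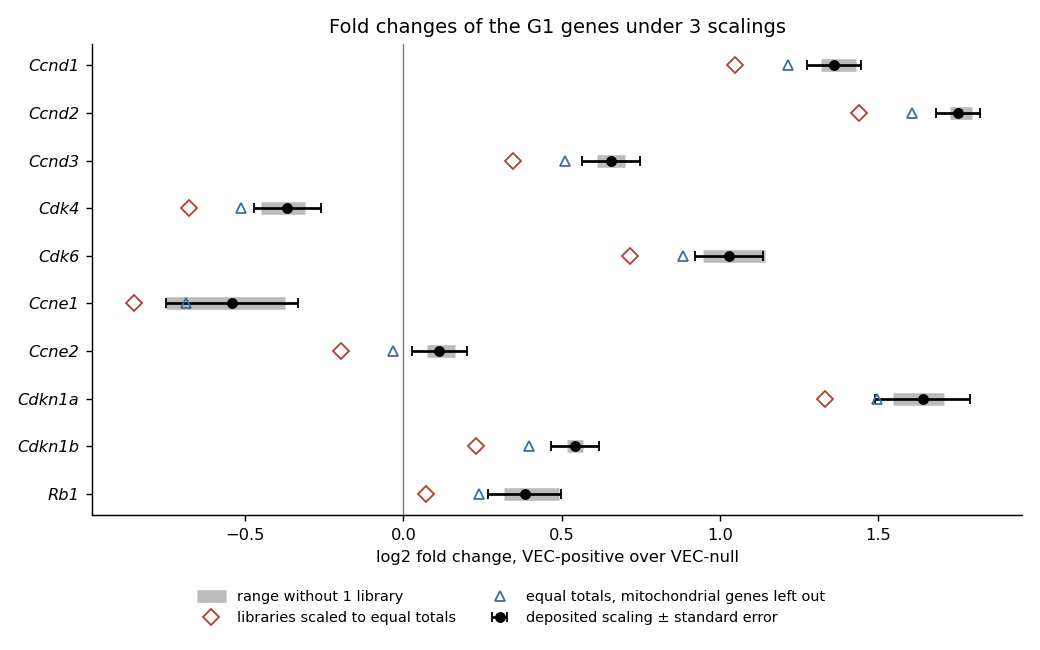
Log2 fold change (horizontal axis, positive where VEC-positive is higher) of the 10 genes with the deposited size factors (black, bars for the standard error), the range of fits that each left out 1 library (grey) and 2 other scalings (open symbols). The open symbols of each gene lie left of its black point. With equal totals *Rb1* comes to 0.07, and *Ccne2* is below 0 under both other scalings.

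Per kilobase of exon, the order of the 10 genes differed between the cell types. In VEC-positive libraries *Ccnd2* was first at 472 normalized counts per kb, ahead of *Ccnd1* at 268, *Cdk4* at 166, *Ccne2* at 152 and *Cdkn1b* at 140.2. Then came *Cdk6* at 70.2, *Rb1* at 61.7, *Cdkn1a* at 59.3, *Ccnd3* at 47.4 and *Ccne1* at 31.2 per kb. Of these neighbours, *Cdk4* and *Ccne2*, *Ccne2* and *Cdkn1b*, and *Rb1* and *Cdkn1a* overlapped over the 3 libraries. In VEC-null libraries *Cdk4* was first at 214 per kb, then *Ccne2* at 141 and *Ccnd2* at 140.1, which overlapped each other, and *Ccnd1* at 104 and *Cdkn1b* at 96.3, which did too. *Cdkn1a* was last there at 18.8 per kb, below the range of *Ccnd3*. The lengths set part of this order. With the longest principal transcript in place of all exons, *Ccnd3* moved up to place 4 in VEC-positive and 5 in VEC-null libraries. Other places changed too. *Cdk6* went from place 6 to 8 and *Rb1* from 7 to 9 in VEC-positive libraries. In VEC-null libraries *Ccnd2* came ahead of *Ccne2*, at 208 against 164 per kb of transcript.
Summed per kb, the D-type cyclins were at 787 ± 13.99 in VEC-positive and 275 ± 10.2 in VEC-null libraries (SD, n = 3 each). *Ccnd2* made up 59.8% to 60.1% of that sum in VEC-positive and 48.3% to 53.1% in VEC-null libraries, and *Ccnd3* 5.71% to 6.44% and 10.7% to 11.4%. With transcript lengths the share of *Ccnd3* was 15.2% to 16.9% in VEC-positive and 26.4% to 27.6% in VEC-null libraries.

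**Figure D3:**
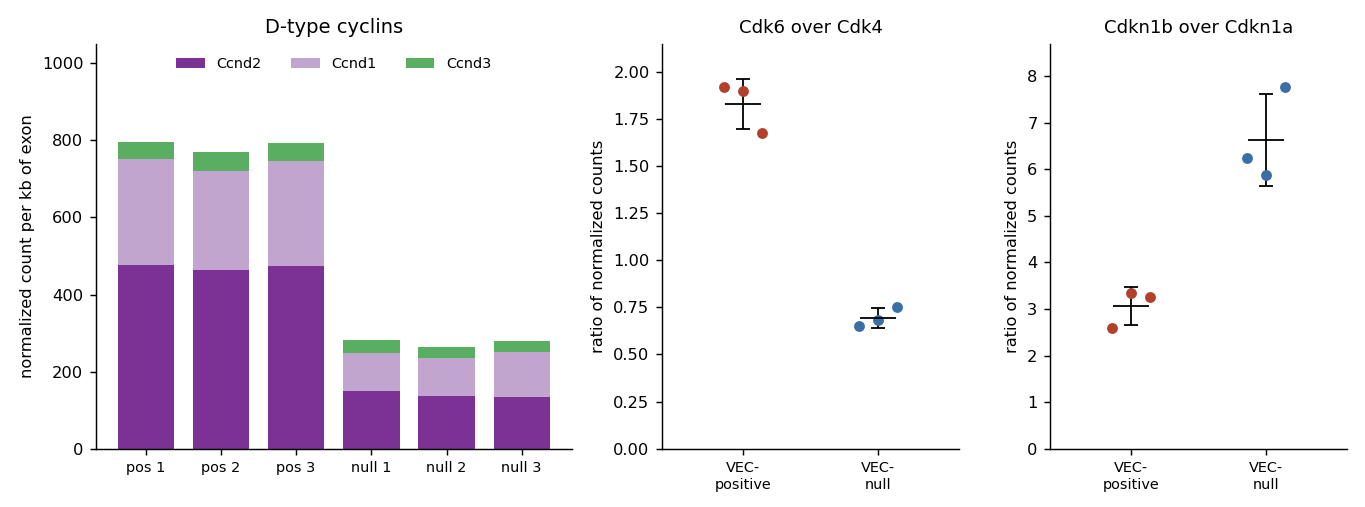
Left, normalized counts per kb of exon of the D-type cyclins stacked by library (pos, VEC-positive; null, VEC-null). Middle and right, the ratio of *Cdk6* to *Cdk4* and of *Cdkn1b* to *Cdkn1a* in each library with mean and SD. The *Cdk6* ratio is 1.68 to 1.92 in VEC-positive and 0.650 to 0.751 in VEC-null libraries.

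Of the remaining inhibitors of G1 kinases, *Cdkn1c*, *Cdkn2a* and *Cdkn2c* fell. *Cdkn1c* (p57), the third Cip/Kip gene and an imprinted one, fell to 32.7, 31.2 and 40.3 normalized counts in VEC-positive libraries, against 76.5, 110.2 and 156 in VEC-null (log2 fold change -1.64, standard error 0.27, adjusted p = 0.00215). The INK4 genes encode inhibitors that bind CDK4 and CDK6 alone and are named here after their values were seen. *Cdkn2a* was at 226, 239 and 196 in VEC-positive and 338, 367 and 444 in VEC-null libraries (log2 fold change -0.79, adjusted p = 0.00223), and its count does not separate the p16 and Arf transcripts. *Cdkn2c* was at 162 ± 22.6 in VEC-positive and 234 ± 30.8 in VEC-null libraries (SD, n = 3 each, log2 fold change -0.53, adjusted p = 0.0230). *Cdkn2b*, at 32.0 ± 5.22 in VEC-positive and 43.3 ± 13.3 in VEC-null, and *Cdkn2d*, at 65.8 ± 1.71 and 51.5 ± 3.52 (SD, n = 3 each), did not pass (adjusted p = 0.314 and 0.134).

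**Figure D4:**
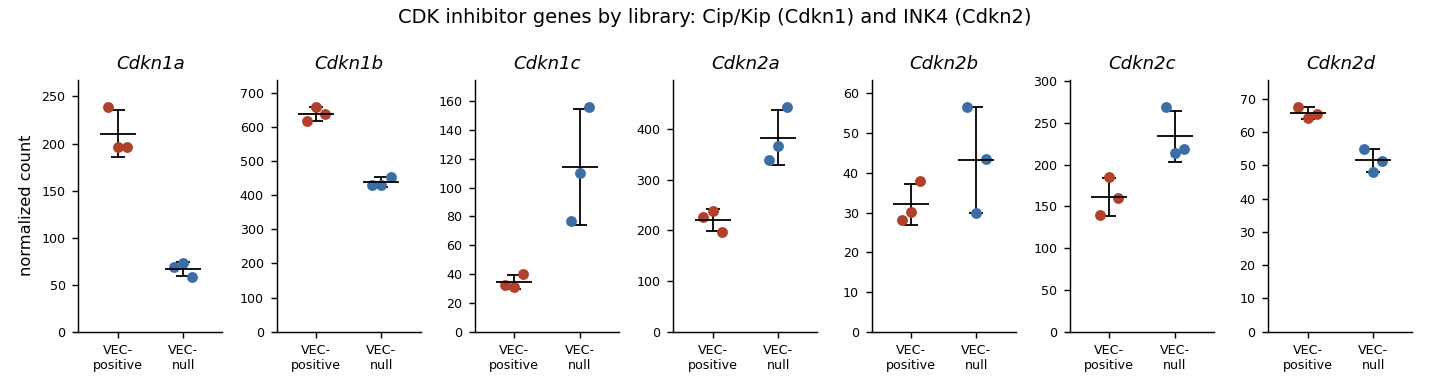
Normalized counts (vertical axes, each from 0) of the 7 CDK inhibitor genes in the 3 VEC-positive (red, left) and 3 VEC-null libraries (blue, right), with mean and SD. *Cdkn1a* and *Cdkn1b* are higher in VEC-positive, while *Cdkn1c*, *Cdkn2a* and *Cdkn2c* are lower.

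Of 22 further regulators of G1, the INK4 genes and *Cdkn1c* among them, 4 rose, 9 fell and 9 did not pass, with a median log2 fold change of -0.16 where the median of all tested genes was -0.01. Beside the counts of this list and of those below, 20.9% of all tested genes were called higher and 16.4% lower. The lists were chosen with earlier results known, so their counts are descriptions. With equal totals the calls of the 4 that rose were lost, and without VEC-positive 2, 2 genes rose. *Ccna2*, the cyclin that replaces cyclin E in S phase, fell to 369, 374 and 369 in VEC-positive libraries, against 817, 734 and 794 in VEC-null (log2 fold change -1.07, adjusted p = 3.55e-05). *Rbl1* (p107), a pocket protein related to RB, was at 352 ± 51.7 in VEC-positive and 619.7 ± 24.6 in VEC-null libraries (SD, n = 3 each; log2 fold change -0.82, adjusted p = 0.00105). *Cks2*, a small subunit of CDK complexes, fell by 1.18 on the log2 scale (adjusted p = 0.000272). *Cdc37*, the chaperone cofactor of CDK4, and *Ambra1*, which helps degrade D-type cyclins, had log2 fold changes of -0.11 and 0.12 and did not pass (adjusted p = 0.34 and 0.388), but *Cdc37* passed with equal totals (-0.42, adjusted p = 0.00361), also without mitochondrial genes in the totals (-0.25, adjusted p = 0.0396).
Of the 10 E2F and DP genes, 4 fell and 6 did not pass, with a median of -0.39. *E2f8*, a repressor of the E2F family, fell to 186 ± 5.53 in VEC-positive libraries, against 363 ± 43.2 in VEC-null (SD, n = 3 each; log2 fold change -0.96, adjusted p = 0.000355). On the log2 scale *E2f1* fell by 0.59 (adjusted p = 0.0262), *E2f5* by 0.62 (adjusted p = 0.0126) and *E2f7* by 0.54 (adjusted p = 0.0132). None of these 3 calls held in every fit without 1 library. The adjusted p of *E2f1* was 0.0527 to 0.0945 without VEC-positive 2 or 3 or VEC-null 1 or 2. That of *E2f5* was 0.0526 without VEC-positive 3, and that of *E2f7* 0.0510 to 0.0544 without VEC-positive 1 or 2 or VEC-null 2. The count of E2F and DP genes that fell was 2 without VEC-positive 2 or 3. *Tfdp1* and *Tfdp2*, the dimer partners of E2F factors, had log2 fold changes of -0.25 and -0.086 and did not pass (adjusted p = 0.0663 and 0.517), but *Tfdp1* passed on all libraries by edgeR (-0.27, adjusted p = 0.0454), with equal totals (-0.56, adjusted p = 0.00119) and without VEC-null 2 (-0.32, adjusted p = 0.0369). *Tfdp2* passed with equal totals (-0.40, adjusted p = 0.00908).
Of 25 S phase genes that E2F factors are known to control, 23 fell and 2, *Cdc45* and *Fen1*, did not pass, with a median of -0.75. Without VEC-null 3, *Fen1* passed as well (-0.35, adjusted p = 0.0161), as it did with equal totals (-0.54, adjusted p = 0.00944). *Pola1*, which encodes the polymerase that starts new DNA strands, and *Mcm6*, a subunit of the replicative helicase, had log2 fold changes of -1.50 and -1.41, and *Rrm2*, a subunit of ribonucleotide reductase, one of -1.16. Of 15 cyclins, kinases and other genes of S, G2 and M phase, 14 fell and *Pkmyt1* did not pass, with a median of -1.22. *Ccnb1*, a cyclin of mitotic entry, fell by 1.90 on the log2 scale (adjusted p = 5.47e-05). The D-type cyclins and *Cdk6* were thus at higher counts in the libraries in which these genes were at lower counts.

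Of 22 targets of p53 other than *Cdkn1a*, 20 were tested, of which 8 rose, 1 fell and 11 did not pass, with a median log2 fold change of 0.34. *Fas*, a death receptor, had the largest difference, at 171, 210.4 and 183 in VEC-positive and 4.59, 5.51 and 10.6 in VEC-null libraries (log2 fold change 4.65, adjusted p = 1.96e-05). *Eda2r* rose by 1.23 (adjusted p = 0.000711) and *Btg2*, an antiproliferative gene, by 1.02 (adjusted p = 0.00073) on the log2 scale. *Mdm2*, the p53 target whose protein in turn degrades p53, rose to 888 ± 11.6, against 547 ± 63.2 in VEC-null (SD, n = 3 each; adjusted p = 0.000889). *Mdm2* and *Trp53*, which encodes p53 and rose by 0.53 on the log2 scale (adjusted p = 0.00858), are named after their values were seen. *Gadd45a* was the gene that fell, at 84.0, 102 and 85.5 in VEC-positive and 189.7, 202 and 237 in VEC-null libraries (log2 fold change -1.20, adjusted p = 0.000411). *Plk2*, with the highest counts of the list, did not pass (log2 fold change 0.16, adjusted p = 0.138), but passed without VEC-null 3 (0.20, adjusted p = 0.0379). Also named once values were seen, *Ccng1*, *Sesn1*, *Bax* and *Bbc3* of this list did not pass. Their log2 fold changes were 0.11, 0.012, 0.25 and -0.17.
Of 26 transcription factors known to act on G1 genes, 23 were tested, of which 13 rose, 1 fell and 9 did not pass, with a median of 0.45. With equal totals 6 rose. *Klf4*, an activator of *Cdkn1a* and repressor of division in many cells, was at 888, 937 and 947 in VEC-positive and 132, 120.5 and 134 in VEC-null libraries (log2 fold change 2.84, standard error 0.088, adjusted p = 5.95e-07). *Tcf7l2*, a partner of β-catenin, rose by 1.47 on the log2 scale (adjusted p = 1.49e-05) and *Mxd4*, an antagonist of Myc at E-boxes, by 1.11 (adjusted p = 1.50e-05). *Foxm1*, which drives genes of mitosis, was the factor that fell (log2 fold change -1.06, adjusted p = 0.000108). *Ctnnb1*, which encodes β-catenin itself, and *Bmi1*, a polycomb repressor of *Cdkn2a*, had log2 fold changes of 0.10 and 0.22 and did not pass (adjusted p = 0.519 and 0.115), but passed without VEC-null 3 (0.21 and 0.32, adjusted p = 0.0305 and 0.00371). Chosen for naming once values were seen, *Foxo1* rose by 0.59 on the log2 scale (adjusted p = 0.0103), and *Myc* did not pass (0.33, adjusted p = 0.0635).

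**Figure D5:**
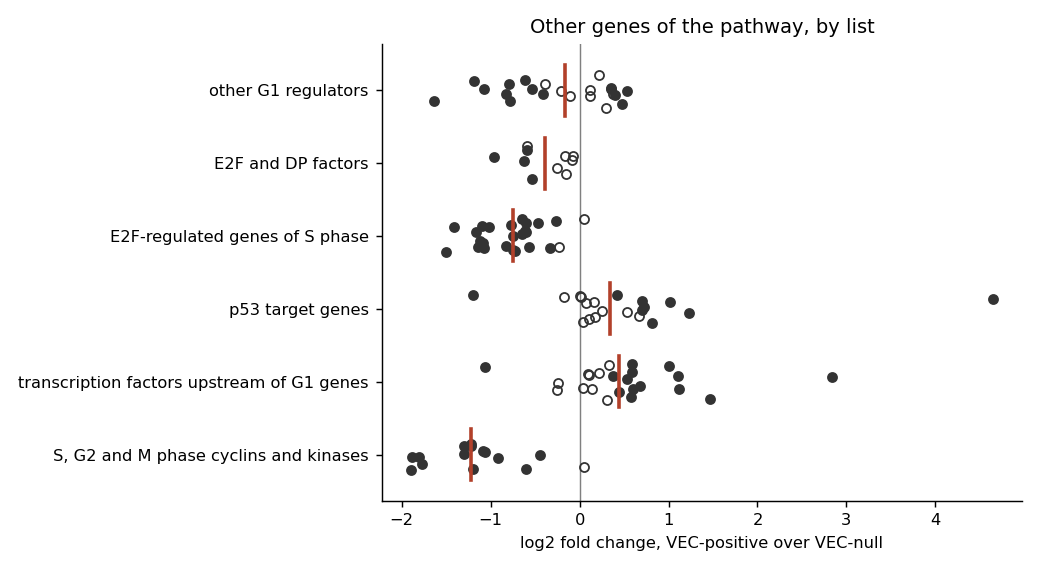
Log2 fold change (horizontal axis, positive where VEC-positive is higher) of each tested gene of 6 lists outside the 10 genes, with filled points for genes past an adjusted p of 0.05, open points for the rest and a red bar for the median. Filled points of the S phase and of the S, G2 and M lists lie left of 0, while those of the p53 targets and upstream factors lie right of it except *Gadd45a* and *Foxm1*.

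The genes whose log2 values ran most like those of *Ccnd1* over the 6 libraries were *AU021092* (Pearson r = 0.9995) and *Nedd9*, a scaffold of focal adhesions (r = 0.9995), and those most like *Cdkn1a* were *H2-Q4* (r = 0.998) and *Myo5c* (r = 0.997). These are descriptions over 6 libraries that share the contrast of 2 cell types, and 1676 and 1108 genes had an r above 0.95 with *Ccnd1* and *Cdkn1a*.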

How the data were processed

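Total RNA of 3 VEC-positive and 3 VEC-null libraries was sequenced with a stranded kit. The processing notes name Trim Galore, TopHat2 2.1.1, DESeq2 1.14 and mm10, and no source used here names the counting program or annotation. The authors deposited signal values for 24080 genes, each a read count over the size factor of its library. Each value was within 0.01 of a whole read in 100% of cases, which gave 6036155 to 14136376 reads per library (median 11128657). GENCODE M21 gave symbols, coordinates and exon lengths for 23908 genes.

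The 14032 genes that reached 10 normalized counts in 3 or more libraries entered a two-sided limma fit (version 3.58.1, R 4.3.3, trend option) of log2(value + 1), and p-values were adjusted by Benjamini-Hochberg over these genes, with 0.05 as threshold. Fold changes on this scale understate those of low genes. For the 10 genes no p is given. Members and lists were chosen with earlier results of these data known. Of each list, up to 4 genes past the threshold that changed most and averaged 50 or more, and up to 2 with the highest means that did not pass, were drawn, of which not all are printed. Alternatives were other pseudocounts, filters and scalings, count models (edgeR 4.0.16, DESeq2 1.42.0) of the recovered reads, the replicate number as a block and leaving out each library. Totals without mitochondrial genes and transcript lengths were added after the data were seen. The fits were tested on simulated counts in which far fewer genes changed than were called here, equally up and down. That test does not cover a dependence on scaling as found here. Replicates were compared and none were identical. The p-values weigh the difference between the groups against the spread between libraries. They do not cover spread between independently derived lines. Figures used matplotlib 3.10.9.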

Additional observations from a re-analysis of the deposited data

How the results depend on the processing

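The direction of each of the 8 members called was kept under all alternatives run, and the log2 fold changes without 1 library ranged from 1.73 to 1.80 for *Ccnd2*, 1.55 to 1.71 for *Cdkn1a*, 0.32 to 0.49 for *Rb1* and -0.45 to -0.31 for *Cdk4*. Members called lower numbered 0 to 2 by limma without 1 library, 0 without VEC-positive 1 or 2 or VEC-null 1 and 2 without VEC-null 3. On all libraries they numbered 1 by edgeR and by DESeq2. They numbered 2 with equal totals and 2 with equal totals without mitochondrial genes. Members called higher numbered 6 or 7 under all alternatives, and where 6, the call lost was that of *Rb1*. The second member called lower was *Ccne1*. Over all genes, 1553 were called higher and 5000 lower with equal totals, and 1919 to 3795 higher without 1 library. Of the other G1 regulators, 0 rose with equal totals by limma (1 at an unadjusted p under 0.05, and 4 by edgeR and by DESeq2 with their own scaling), 2 without mitochondrial genes in the totals and 2 to 6 without 1 library. Of E2F and DP genes, 10 fell with equal totals, 7 without mitochondrial genes in the totals and 2 to 5 without 1 library. Of the upstream factors 6 rose with equal totals. Equal totals, with or without mitochondrial genes, shift all fold changes almost alike, and in these data the shift was downward. Among genes that did not pass, *Cdc37*, *Fen1*, *Tfdp1* and *Tfdp2* passed with equal totals, and signs turned with equal totals for *Ambra1* (-0.19), *Bmi1* (-0.092), *Cdc45* (-0.26, adjusted p = 0.0217), *Ctnnb1* (-0.22), *Ei24* (-0.14), *Pkmyt1* (-0.24) and *Plk2* (-0.15), and without mitochondrial genes in the totals for *Ambra1* (-0.023), *Cdc45* (-0.099), *Ctnnb1* (-0.050) and *Pkmyt1* (-0.084). *Pkmyt1* also turned without VEC-positive 1 or 3 or VEC-null 1 (range without 1 library -0.091 to 0.24), as did *Tfdp2* without VEC-null 3 (0.0064). The deviations of same-numbered libraries correlated at 0.0763, -0.333 and -0.295, and those of differently numbered libraries at -0.225 to 0.390. With 3 libraries per group these values cannot decide whether the numbers pair the libraries. With the replicate number as a block 2400 genes were called higher and 1744 lower, with 6 members higher and 1 lower. Depth limits *Ccne1* most, with 620 reads over the 6 libraries.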
